A study of Rattus norvegicus with 6 samples.

Results

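The 10 genes described here encode the core of extracellular TGF-β signaling: the ligands Tgfb1, Tgfb2 and Tgfb3, the receptors Tgfbr1, Tgfbr2 and Tgfbr3, and the latent TGF-β binding proteins Ltbp1, Ltbp2, Ltbp3 and Ltbp4. They were taken by symbol from the deposited gene table, which holds 40154 genes, and all 10 were found and had enough reads to be tested. The cells were atrial fibroblasts of Sprague-Dawley rats aged 1 to 3 days, in culture medium with serum, and were transfected with a negative control siRNA (si-NC, 3 libraries) or an siRNA against GPD1L (si-GPD1L, 3 libraries) for 24 h before RNA-Seq. GPD1L is an enzyme of glycerol phosphate metabolism that was examined as a microRNA target in atrial fibrosis, and TGFβ1 was among the fibrosis markers measured in these fibroblasts. All 6 samples carry the same further label, Atrial differentiation, without an explanation. The labels describe hearts digested together, and they do not say that the libraries of a group came from separate cultures, so the p-values measure the spread between these libraries, which may be technical. The digits in the names of the si-GPD1L libraries were read as replicate numbers, although no source used here tells whether they stand for repeats of a single siRNA.

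TGF-β is made as a precursor and leaves the cell in a latent form, in which the cleaved propeptide still wraps the mature dimer. The propeptide is linked to a latent TGF-β binding protein, which tethers the complex to fibrillin microfibrils in the matrix until integrins or proteases set the ligand free. The free ligand is bound by the type II receptor kinase, which recruits and phosphorylates the type I kinase, and the SMAD proteins then carry the signal to the nucleus. In the atrium this pathway is best known for turning fibroblasts into matrix-producing myofibroblasts.

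The libraries held 16892255 to 20149732 counts, and the 10 genes made up 0.262% to 0.302% of each si-NC library and 0.314% to 0.338% of each si-GPD1L library. The library that stood apart was si-NC replicate 1. Its long genes (the top length quartile, 4965 bases or more) lay 0.133 below the 6-library mean on the log2 scale at the median, against -0.0105 to 0.0412 in the other libraries. Mitochondrially encoded mRNAs took 3.48% of its counts, against 2.07% to 2.41% in the others. As 7 of the 10 genes are in that quartile (all but Tgfb1, Tgfb3 and Tgfbr3), values without this library are given beside the results. The targeted gene Gpd1l had 262, 332 and 313 normalized counts (counts scaled to the mean library size) in the controls, and the si-GPD1L libraries had 220, 208 and 302.5, so that the groups overlapped. Its log2 fold change was -0.31 (standard error 0.15, adjusted p = 0.234, edgeR's quasi-likelihood test) and its exact two-sided permutation p = 0.20, where 0.10 is the smallest that this design allows. Without si-NC replicate 1 the log2 fold change was -0.41 (adjusted p = 0.0604), without si-GPD1L replicate 3 it was -0.50 (adjusted p = 0.0733), and over all omissions of a library it ran from -0.50 to -0.21. A direction drawn from si-GPD1L therefore refers to the libraries labelled si-GPD1L. The 11 fibroblast markers, led by Col1a1, summed to 7.06% to 8.61% of each control library and 8.08% to 8.53% of each si-GPD1L library, and 2 of them, Dcn and Lum, were lower at an adjusted p under 0.05. All 20 interferon-stimulated genes listed were higher in si-GPD1L, at a median log2 fold change of 6.16. Their sum was 0.0260% to 0.0286% of a control library and 0.193% to 0.232% of a si-GPD1L library. Among markers of other cells, the summed shares of the endothelial and cardiomyocyte lists did not overlap between the groups. Of 11 tested endothelial markers, 4 were higher (Pecam1, Cdh5, Tie1 and Plvap), and all 11 had a log2 fold change above 0. At an adjusted p under 0.05, 4.03% of all genes tested were higher and 2.33% lower. The endothelial sum was 0.0573% to 0.0679% in si-NC against 0.0733% to 0.0756% in si-GPD1L. Most of it was Eng, which was not called (adjusted p = 0.126, edgeR's quasi-likelihood test). Its mean in si-NC was 9393 normalized counts, against 40.8 for Pecam1. The cardiomyocyte sum was 0.204% to 0.215% against 0.187% to 0.202%, with 1 of 12 markers lower (Pln) and 3 of 12 with a log2 fold change above 0. At an unadjusted p under 0.05 in edgeR's quasi-likelihood test, 5 were lower and 1 higher, against 22.4% of all genes tested in either direction. The macrophage sum was 0.0162% to 0.0175% against 0.0137% to 0.0196%, with 0 of 12 called by edgeR's quasi-likelihood test, DESeq2's Wald test or edgeR's exact test and 0 at an unadjusted p under 0.05 in any of them. The smooth muscle and pericyte sum was 0.247% to 0.306% against 0.267% to 0.285%, with 2 of 11 higher (Cspg4 and Mcam) and 1 lower (Des). None of the markers in these lists was at 0 counts in every library, and the part of the endothelial, muscle and interferon genes in the results below was not tested. In bulk RNA, fewer cells of a type and less RNA per cell cannot be told apart.

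Per unit of length, Tgfb3 was the most abundant of the 10 genes in the control fibroblasts and the signaling receptor kinase Tgfbr1 the least abundant. The scale here is TPM, the deposited reads per gene length scaled to a common sum, which allows levels of different genes to be set side by side as far as the annotated lengths hold. The TPM of Tgfb3 was 412 ± 21.6 in si-NC (SD, n = 3), above 97.9% of the genes tested. Ltbp2 followed with 265 ± 46.2. Then came Ltbp4 (177 ± 40.6), Tgfb1 (158 ± 13.5), Tgfbr2 (151 ± 23.3) and Ltbp3 (149 ± 23.4), whose ranges over the si-NC libraries overlapped. Tgfb2 stood at 68.0 ± 4.70 and Ltbp1 at 37.3 ± 2.83, and neither overlapped with a neighbour. Tgfbr3 (21.4 ± 5.60) and Tgfbr1 (19.8 ± 0.939) overlapped with each other. In si-GPD1L the first places were exchanged. Ltbp2 led with a TPM of 416 ± 51.6 (SD, n = 3) and Tgfb3 followed with 354 ± 3.70. Within single libraries the Tgfb3 level was 1.40 to 1.86 times the Ltbp2 level in si-NC and 0.748 to 0.948 times in si-GPD1L. The order of the other genes differed between the groups only for pairs whose si-NC ranges overlapped, Tgfbr2 with Ltbp3 and Tgfbr3 with Tgfbr1.

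**Figure D1:**
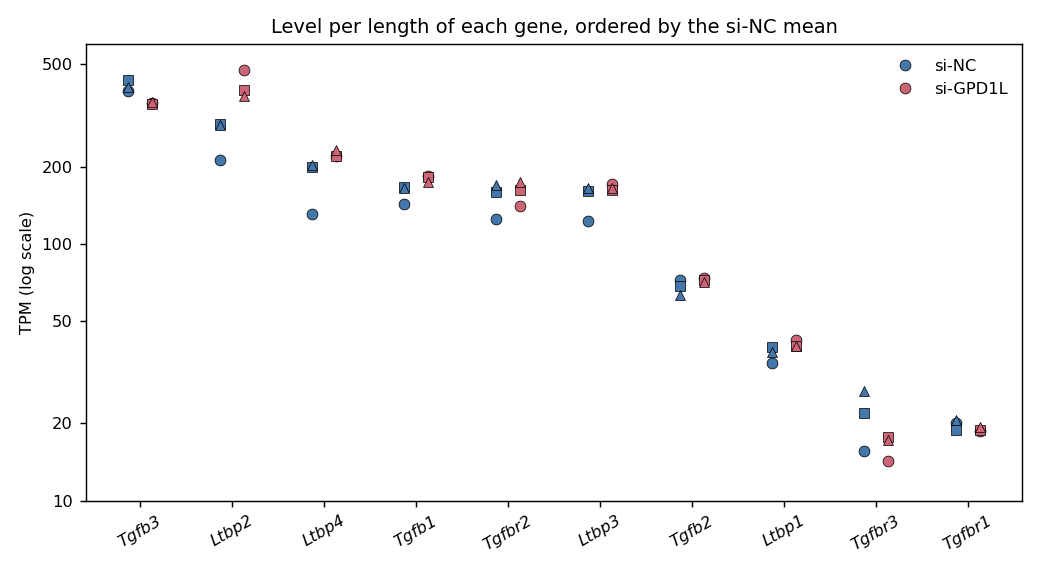
TPM (vertical axis, log scale) of each gene in each library, ordered along the horizontal axis by the si-NC mean. Circles, squares and triangles are replicates 1, 2 and 3. Tgfb3 leads in si-NC with 393 to 436 TPM, while Ltbp2 leads in si-GPD1L with 377 to 475 TPM.

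When the groups were compared, Ltbp2 was higher and Tgfb3 lower in si-GPD1L, and the other 8 genes did not pass the test. The question was whether the fibroblasts labelled si-GPD1L hold more or less RNA of the genes for TGF-β and its handling. By edgeR's quasi-likelihood test, with p-values adjusted over the 14852 genes that had enough reads, 2 of the 10 genes were called at an adjusted p under 0.05, against 6.36% of all genes tested. The gene that was higher compares with 4.03% of all genes tested and the gene that was lower with 2.33%. A second threshold, an absolute log2 fold change over 1, was reached by none of the 10 genes in this test, DESeq2's Wald test or edgeR's exact test, at any p, while 1.62% of all genes tested passed both thresholds, most of them higher (1.48%). At an unadjusted p under 0.05 there were 4 of 10 genes (Tgfb3, Tgfbr3, Ltbp2 and Ltbp4), against 22.4% of all genes tested. The libraries of the groups did not overlap for 5 of the 10 (Tgfb1, Tgfb3, Tgfbr1, Ltbp2 and Ltbp4), against 29.0% of all genes tested. The median log2 fold change of the 10 genes was 0.025 and that of all genes tested -0.0049. Without si-NC replicate 1, 3 of the 10 genes were called, Tgfbr3 in addition. Without si-GPD1L replicate 1 none was called, and Ltbp2 alone was called without si-NC replicate 2, si-GPD1L replicate 2 or si-GPD1L replicate 3.

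**Figure D2:**
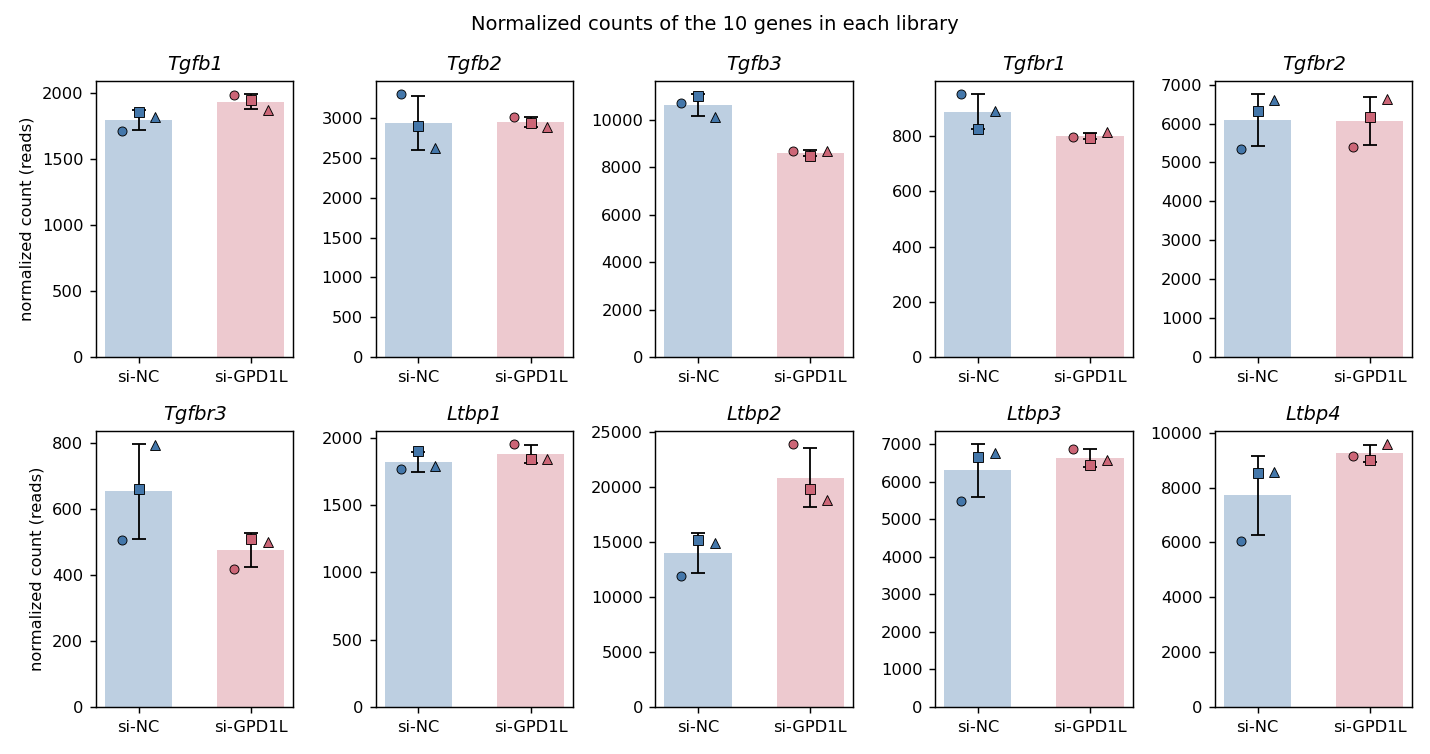
Normalized counts (vertical axes, from 0; counts scaled to the mean library size) of each gene in the libraries of si-NC and si-GPD1L. Bars are means, whiskers 1 SD and symbols single libraries, with circles, squares and triangles for replicates 1, 2 and 3; only Ltbp2 and Tgfb3 were called, with means of 13992 against 20855 and 10637 against 8623.

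Among the ligands, Tgfb3 fell in si-GPD1L and the other two did not pass the test. Tgfb3 (NCBI gene 25717, rn6 chr6:109913757-109936217, minus strand) encodes TGF-β3, the isoform known for its role in palate closure. Its normalized counts were 10737, 11032 and 10143 in si-NC replicates 1, 2 and 3. In si-GPD1L they were 8703, 8481 and 8684. All 3 si-GPD1L libraries were below all 3 si-NC libraries, and they lay close to each other. The log2 fold change was -0.30 (standard error 0.071, adjusted p = 0.0261, edgeR's quasi-likelihood test), which places Tgfb3 at 81.1% of the control level with a 95% confidence interval of 0.728 to 0.902 times. When any 1 library was left out, the log2 fold change stayed between -0.34 and -0.28, while the adjusted p ran from 0.00102 to 0.167. It was not under 0.05 without si-NC replicate 2 (0.102) or without si-GPD1L replicate 1 (0.119), replicate 2 (0.167) or replicate 3 (0.0881). In these fits 361 to 591 of all genes were called, against 945, and Ltbp2 stayed called in all of them but the one without si-GPD1L replicate 1. Why the adjusted p of Tgfb3 rose was not tested.

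Tgfb1 (NCBI gene 59086, rn6 chr1:82480875-82497196, plus strand) encodes TGF-β1, the isoform most often studied in cardiac fibrosis. Its normalized counts were 1718, 1861 and 1820 in si-NC and 1986, 1952 and 1876 in si-GPD1L. The si-GPD1L libraries were all higher than the si-NC libraries, but the closest pair, at 1861 and 1876, nearly met. This difference of 0.11 on the log2 scale did not pass (standard error 0.067, adjusted p = 0.378), and the 95% confidence interval of the fold covers 0.973 to 1.19. Without si-NC replicate 1 it was 0.073 (adjusted p = 0.472).

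The gene of the remaining ligand, Tgfb2 (NCBI gene 81809, rn6 chr13:105039639-105142010, minus strand) encodes TGF-β2, the isoform that needs the co-receptor betaglycan for efficient binding to its receptor. It had 3298, 2894 and 2622 normalized counts in si-NC, a wider spread than the 3013, 2934 and 2891 of the si-GPD1L libraries. The groups overlapped, with the si-GPD1L values inside the si-NC range. Its log2 fold change of 0.0039, with a standard error of 0.084 and an adjusted p of 0.987, had a confidence interval of the fold from 0.883 to 1.14. The sign changed with upper-quartile normalization, with each library's trend on gene length removed, and without si-NC replicate 2 (-0.0082), si-NC replicate 3 (-0.073) or si-GPD1L replicate 1 (-0.014). The value was 0.094 without si-NC replicate 1 (adjusted p = 0.340).

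**Figure D3:**
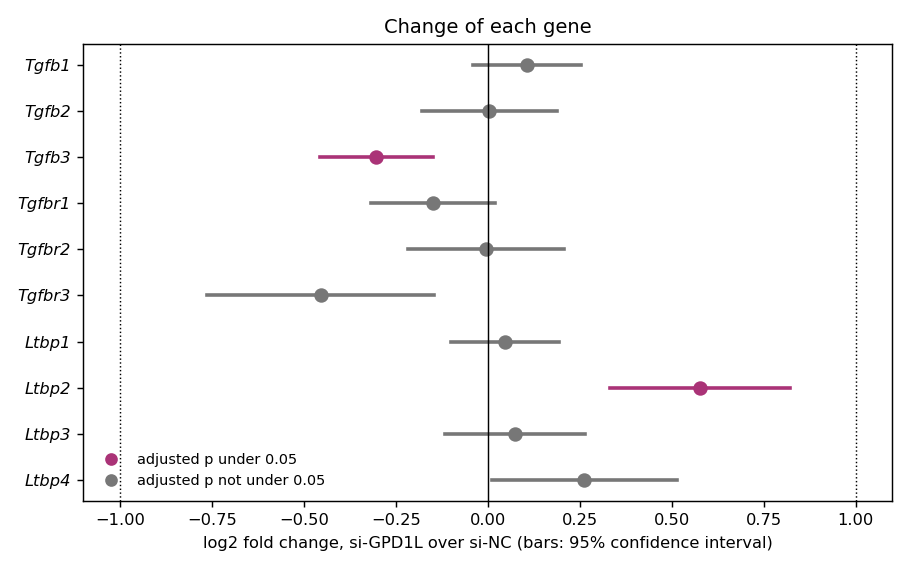
Log2 fold change (horizontal axis, si-GPD1L over si-NC) of each gene with its 95% confidence interval as a bar; dotted lines mark a log2 fold change of 1 in either direction. The called genes, in purple, are Ltbp2 at 0.58 and Tgfb3 at -0.30, and no interval reaches a dotted line.

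No receptor passed the test. Tgfbr2 (NCBI gene 81810, rn6 chr8:124310288-124399345, minus strand), the type II kinase that binds the ligand first, had 5342, 6313 and 6612 normalized counts in si-NC and 5401, 6179 and 6619 in si-GPD1L. These ranges were nearly the same, and replicate 1 was the lowest library in both groups. The log2 ratio of the groups was -0.0053 (standard error 0.098, adjusted p = 0.985), and the confidence interval of the fold covers 0.860 to 1.15. The sign changed without si-NC replicate 2 (0.020), si-NC replicate 3 (0.057) or si-GPD1L replicate 1 (0.070), and with transcript counts summed per gene (0.0084). It was -0.092 without si-NC replicate 1 (adjusted p = 0.472).

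Tgfbr1 (NCBI gene 29591, rn6 chr5:63056071-63119635, plus strand), the type I kinase also called ALK5, had 951, 824 and 890 normalized counts in si-NC. The counts in si-GPD1L were 797, 793 and 815. Every si-GPD1L library was below every si-NC library, although the gap of the closest pair was smaller than the spread within si-NC. The log2 difference of -0.15 (standard error 0.077) had an adjusted p of 0.277, with a confidence interval of the fold from 0.803 to 1.01. The log2 difference of Tgfbr1 was -0.099 without si-NC replicate 1 (adjusted p = 0.426).

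Tgfbr3 (NCBI gene 29610, rn6 chr14:3506416-3680508, plus strand) encodes betaglycan, a proteoglycan co-receptor that presents TGF-β2 to the signaling receptors. Its normalized counts were 505, 660 and 793 in si-NC, the widest relative spread among the 10 genes, and 417, 510 and 500.1 in si-GPD1L. The groups overlapped, because si-NC replicate 1 was lower than si-GPD1L replicate 2. For Tgfbr3 the log2 fold change of -0.46 (standard error 0.14) had an adjusted p of 0.0792, at 72.9% of the control level with a confidence interval of 0.589 to 0.904 times. The adjusted p was under 0.05 without si-NC replicate 1 (log2 fold change -0.61, adjusted p = 0.000222), in DESeq2's Wald test (0.0296), in edgeR's exact test (0.0303), with no filter on low counts (0.000291) and with the length trend removed (0.0477). Without si-NC replicate 3, the highest of the controls, the log2 fold change was -0.29 (adjusted p = 0.171). Over all its alternatives the adjusted p ran from 0.000222 to 0.290.

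Among the latent TGF-β binding proteins, Ltbp2 rose to 1.49 times its control level in si-GPD1L, and Ltbp1, Ltbp3 and Ltbp4 did not pass the test. LTBP2 is the family member that does not bind latent TGF-β and is instead known as a microfibril protein. Ltbp2 (NCBI gene 59106, rn6 chr6:108500114-108596653, minus strand) had 11866, 15203 and 14908 normalized counts in si-NC. In si-GPD1L it had 23927, 19797 and 18842. All si-GPD1L libraries were above all si-NC libraries, with si-NC replicate 1 the lowest and si-GPD1L replicate 1 the highest of the 6. The log2 fold change was 0.58 (standard error 0.11, adjusted p = 0.00983, edgeR's quasi-likelihood test), and the confidence interval of the fold covers 1.26 to 1.77. Without si-NC replicate 1 the log2 fold change was 0.47 (adjusted p = 0.000239), and with each library's trend on gene length removed it was 0.53 (adjusted p = 0.00298). Without si-GPD1L replicate 1 it was 0.46 and the adjusted p of 0.0728 was not under 0.05.

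Ltbp4 (NCBI gene 292734, rn6 chr1:84118046-84152095, minus strand) encodes a binding protein that also helps to assemble elastic fibers. Its normalized counts were 6043, 8541 and 8566 in the controls, and 9164, 9005 and 9594 with si-GPD1L. The groups did not overlap, and si-NC replicate 1 was far below the other 2 control libraries. Its log2 fold change was 0.26 (standard error 0.12, adjusted p = 0.205, confidence interval of the fold 1.01 to 1.43), and without si-NC replicate 1 it dropped to 0.11 (adjusted p = 0.209).

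Ltbp3 (NCBI gene 83838, rn6 chr1:221099155-221116096, plus strand), which binds latent TGF-β and acts in bone and tooth, had 5489, 6659 and 6768 normalized counts in si-NC and 6889, 6443 and 6578 in si-GPD1L. The groups overlapped, and si-NC replicate 1 was the lowest of the 6 libraries. The log2 fold change of Ltbp3 was 0.074 (standard error 0.087, adjusted p = 0.673) with all libraries and -0.018 without si-NC replicate 1. Ltbp1 (NCBI gene 59107, rn6 chr6:21203502-21600441, minus strand), the first member described and a carrier of latent TGF-β in the matrix, had 1763, 1900 and 1790 normalized counts in si-NC and 1953, 1837 and 1839 in si-GPD1L. These values overlapped. The log2 fold change of Ltbp1 was 0.046 (standard error 0.068, adjusted p = 0.743), and the confidence interval of the fold covers 0.932 to 1.14. For Ltbp1 the value was 0.023 (adjusted p = 0.859) without si-NC replicate 1, and ran from 0.014 without si-GPD1L replicate 1 to 0.077 without si-NC replicate 2.

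The promoters of all 10 genes were searched for letters that SMAD proteins are known to bind. The matches, in Ltbp1 and Ltbp2, are shown. The sequences are the RefSeq promoters of rat build GRCr8, in which all 10 genes matched by symbol, and this build differs from the rn6 coordinates of the counts. Searched were the 250 bases before each annotated start, on both strands. The Smad box CAGAC was found for 2 of the 10 genes, Ltbp1 and Ltbp2, and is present in 42.8% of 27457 promoters. It was not found for Tgfb3, the other gene called beside Ltbp2. The windows run 5′ to 3′ on the strand of the gene, with the match in capitals, and a GTCTG is the same box on the other strand.
Ltbp2, 117 bases before the start, chr6:110257401-110257425, minus strand: ggttccccttCAGACggcggcagtg
Ltbp2, 85 bases before the start, chr6:110257369-110257393, minus strand: gaaggtgcggCAGACtcgggctcgg
Ltbp2, 9 bases before the start, chr6:110257299-110257317, minus strand: accccaagacGTCTGtttc
Ltbp1, 99 bases before the start, chr6:26177386-26177410, minus strand: ctgacgtcacGTCTGccgcagattg
These matches do not overlap with the GC box GGGCGG, which was found for 6 of the 10 genes (Tgfbr1, Tgfbr2, Tgfbr3, Ltbp2, Ltbp3 and Ltbp4) and is present in 32.4% of all promoters. The TATA box TATAAA (13.1% of all promoters) and the interferon response element core, GAAA followed after 2 bases by a second GAAA (3.29% of all promoters), were found for none of the 10. A match is a description of the letters in these windows only.

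The annotated isoforms of Ltbp2 and Tgfb3 moved in the direction of their genes. The transcript table lists 22 transcripts of the 10 genes, all with enough reads to be tested, and 4 of them were called at an adjusted p under 0.05, against 5.89% of all transcripts tested. They were both transcripts of Ltbp2 and both of Tgfb3. This count was 0 without si-GPD1L replicate 1 or replicate 2, and 2 without si-GPD1L replicate 3 or si-NC replicate 2. Ltbp2 transcripts of 6786 and 6452 bases both had a log2 fold change of 0.56 (adjusted p = 0.0117 and 0.0116). For Tgfb3, the models of 2963 and 2619 bases had -0.33 and -0.31 (adjusted p = 0.0217 and 0.0300). The models of Tgfb2 differ most in length after those of Tgfbr2. The Tgfb2 model of 5427 bases differed by -0.021 on the log2 scale (standard error 0.090) and that of 2868 bases by 0.021 (standard error 0.080). The Tgfbr2 models of 5176 and 2076 bases had -0.023 and 0.038 (standard errors 0.095 and 0.10). For each gene with several transcripts, the transcript counts of a library sum to more than the gene's count, so reads are shared between isoforms and their values are not independent.

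Within the ligand, receptor and binding protein families, the shares of some members did not overlap between the groups, while those of others did. Of the summed TPM of the ligands, Tgfb3 held 64.0% to 64.9% in the controls and 57.8% to 59.2% with si-GPD1L, without overlap. Tgfb1 held 23.5% to 26.05% and 29.0% to 30.2%, while Tgfb2 held 9.92% to 11.9% and 11.8% to 12.0%. The ligand sum itself was 638 ± 31.3 TPM in si-NC and 607 ± 4.71 in si-GPD1L (SD, n = 3), with overlapping libraries. TPM is scaled to a common sum in each library, so family sums of TPM are not on the scale of the normalized counts. The si-NC and si-GPD1L means of Tgfb1, for example, were 158 and 180 TPM but 1800 and 1938 normalized counts. Among the receptors Tgfbr2 held 77.8% to 79.6% in the controls and 81.0% to 82.6% with si-GPD1L, and Tgfbr3 held 9.69% to 12.3% and 8.22% to 8.87%. The shares of Tgfbr1 overlapped, at 9.39% to 12.5% and 9.18% to 10.8%. The receptor sum was 192 ± 28.8 and 194 ± 18.8 TPM. Among the binding proteins Ltbp2 held 41.7% to 42.4% and 46.3% to 52.2%, and Ltbp3 held 23.2% to 24.6% and 18.8% to 20.2%. The shares of Ltbp4 overlapped, at 26.2% to 29.1% and 24.3% to 28.6%. The sum of the 4 binding proteins was 499, 691 and 697 TPM in the controls against 908, 818 and 814 TPM with si-GPD1L. Group means were 265 and 416 TPM for Ltbp2, 177 and 224 for Ltbp4, 149 and 166 for Ltbp3, and 37.3 and 40.8 for Ltbp1. The control sum of 499 TPM is that of si-NC replicate 1, whose long genes were low, and all 4 genes are in the top length quartile. The shares are of transcripts, without a test of shares or sums, and a share falls when another member of its family rises.

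In the genes around these 10, single members moved in both directions. Of 110 tested genes in 7 lists on TGF-β and its relatives (121 listed), 5 were higher and 6 lower in si-GPD1L at an adjusted p under 0.05, together 10.0% against 6.36% of all genes tested, and the median log2 fold change was -0.025. The number depended on single libraries, with 31 genes called without si-NC replicate 1, 2 without si-GPD1L replicate 1, 2 without si-GPD1L replicate 2 and 4 without si-NC replicate 2.

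**Figure D4:**
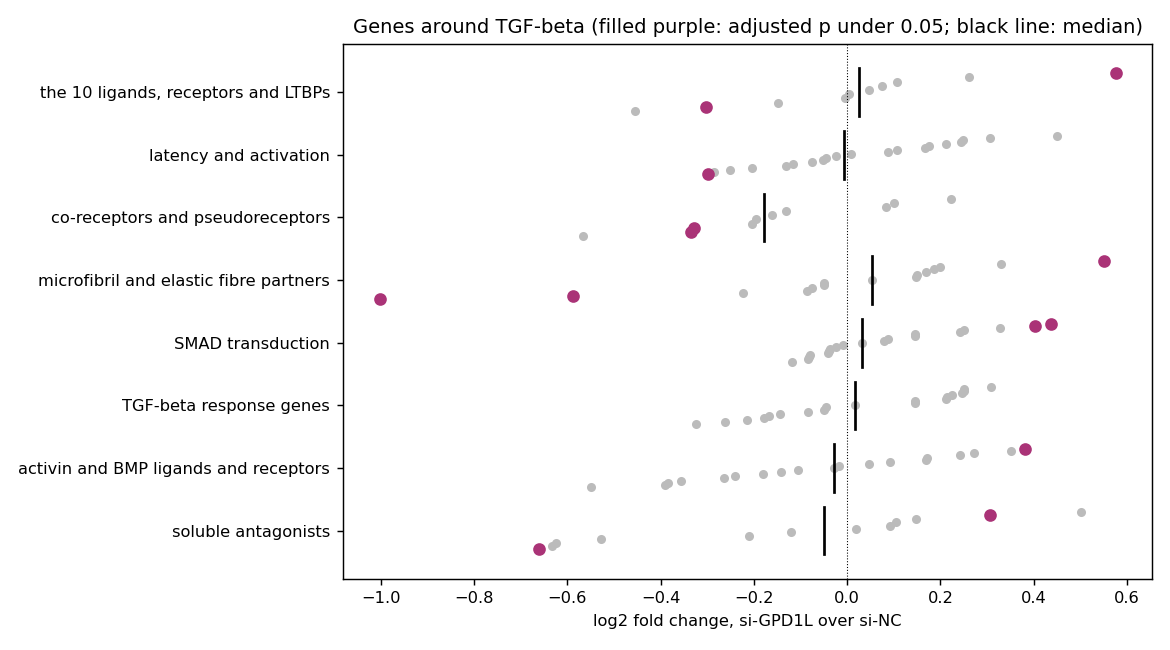
Log2 fold change (horizontal axis, si-GPD1L over si-NC) of each tested gene of the 10 and of the 7 lists around them, 1 dot a gene, with purple dots at an adjusted p under 0.05 and a black line at the median. Called genes lie on both sides of 0, from -1.003 (Efemp1) to 0.58 (Ltbp2).

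Of 20 genes that hold or release latent TGF-β, 1 was called, and it was lower (median log2 fold change -0.0079). Mmp14, a membrane protease that can activate latent TGF-β, fell from 27420 ± 1422 to 22299 ± 953 normalized counts (SD, n = 3, log2 fold change -0.30, adjusted p = 0.0410). It kept an adjusted p under 0.05 only without si-NC replicate 1 among the fits that left out 1 library, with log2 fold changes of -0.34 to -0.28 and adjusted p-values up to 0.228. The most abundant members were Itgb1, the β1 integrin (log2 fold change -0.076, adjusted p = 0.635), and Thbs1, a matrix protein that can unfold the latent complex (0.25, adjusted p = 0.119, and 0.17 with an adjusted p of 0.0229 without si-NC replicate 1). Of the co-receptors and pseudoreceptors, 2 of 10 were called, both lower (median -0.18). Vasn, or vasorin, a membrane protein that traps TGF-β, fell by 0.33 on the log2 scale (adjusted p = 0.0286), and Sdc2, a heparan sulfate proteoglycan, fell by 0.34 (adjusted p = 0.0356). Vasn was called only without si-NC replicate 1 among the fits that left out 1 library (adjusted p up to 0.162), and Sdc2 was not called without si-GPD1L replicate 1 (0.186), si-GPD1L replicate 2 (0.205) or si-NC replicate 2 (0.0818). Eng, a co-receptor that is also among the endothelial markers, had 0.22 (adjusted p = 0.126).

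Among the partners of LTBPs in microfibrils and elastic fibers, 1 of 15 tested genes was higher and 2 were lower (median 0.053). Fbln2, a fibulin of the extracellular matrix, rose from 16483 ± 1198 to 24140 ± 2423 normalized counts (SD, n = 3, log2 fold change 0.55 with a standard error of 0.091, adjusted p = 0.00314), and was called in all 14 alternatives. Fbln1, another fibulin, fell from 3730 ± 521 to 2480 ± 453 (log2 fold change -0.59, adjusted p = 0.0172). Efemp1, a fibulin-related matrix protein, fell by 1.003 on the log2 scale (adjusted p = 0.0349), from 65.4 ± 11.3 to 32.8 ± 9.15 normalized counts. Neither Fbln1 nor Efemp1 was called without si-GPD1L replicate 1 (adjusted p = 0.0923 and 0.125), si-GPD1L replicate 2 (0.0991 and 0.168) or si-NC replicate 2 (0.0637 and 0.0851). The abundant Fbn1, the fibrillin to which LTBPs attach, had 0.33 (adjusted p = 0.123), which became 0.18 (adjusted p = 0.0117) without si-NC replicate 1 and 0.44 (adjusted p = 0.0311) without si-NC replicate 3, and Eln, the elastin gene, had -0.086 (adjusted p = 0.755, and 0.0078 without si-GPD1L replicate 1).

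Of the SMAD transduction genes, 2 of 19 tested were called, both higher (median 0.032). DESeq2's Wald test and edgeR's exact test each called 4, all higher. At an unadjusted p under 0.05 in edgeR's quasi-likelihood test, 5 were higher and 0 lower, against 22.4% of all genes tested in either direction. Smad6, an inhibitory SMAD, rose from 1963 ± 117 to 2658 ± 120 normalized counts (SD, n = 3, log2 fold change 0.44, adjusted p = 0.0031), and was called in all 14 alternatives. Ldlrad4, which restrains SMAD activation, rose by 0.40 on the log2 scale (adjusted p = 0.0194), but was not called without si-GPD1L replicate 1 (0.125), si-GPD1L replicate 2 (0.101) or si-NC replicate 2 (0.0572). Ski, a SMAD corepressor, had 0.33 (adjusted p = 0.0520, and 0.0184 and 0.0177 without si-NC replicate 1 or 3), and Smurf2, a ubiquitin ligase of the pathway, had 0.087 (adjusted p = 0.511). Of the 19 TGF-β response genes reported here, 0 were called by edgeR's quasi-likelihood test, 1 by DESeq2's Wald test and 2 by edgeR's exact test (median log2 fold change 0.018). In the first of these tests, 8 of the 19 had an unadjusted p under 0.05, 6 higher and 2 lower, against 22.4% of all genes tested. The collagen genes Col1a1 and Col3a1 had 0.25 (adjusted p = 0.219) and -0.26 (adjusted p = 0.156). Without si-NC replicate 1, Col1a1 had 0.12 (adjusted p = 0.00607) and Col3a1 -0.33 (adjusted p = 0.00043).

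Of the activin and BMP ligands and receptors, 1 of 19 tested was called, and it was higher (median -0.028). Bmp6, a BMP ligand, rose by 0.38 on the log2 scale (adjusted p = 0.0185; 0.111 and 0.115 without si-GPD1L replicate 1 or 2), while the receptor Bmpr2 had 0.047 (adjusted p = 0.736) and the activin subunit Inhba -0.028 (adjusted p = 0.891, and 0.082 without si-NC replicate 1). Of the soluble antagonists, 1 of 12 tested was higher and 1 lower (median -0.051). Fstl1, a follistatin-like glycoprotein, rose from 40867 ± 205 to 50539 ± 1352 normalized counts (SD, n = 3, log2 fold change 0.31, adjusted p = 0.0286). Dcn, or decorin, a small proteoglycan that binds TGF-β and is also among the fibroblast markers, fell from 4249 ± 466 to 2686 ± 611 (log2 fold change -0.66, adjusted p = 0.0129). Without si-GPD1L replicate 1 the adjusted p of Fstl1 was 0.167 and that of Dcn 0.0564, and without si-GPD1L replicate 2 they were 0.148 and 0.0842. Fstl1 was also not called without si-GPD1L replicate 3 (0.103) or si-NC replicate 2 (0.104). Bgn, or biglycan, a proteoglycan related to decorin, had 0.019 (adjusted p = 0.922), and its sign changed without si-NC replicate 1 (-0.022) or si-GPD1L replicate 3 (-0.0051).

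Across 15 alternative ways of processing, Ltbp2 had an adjusted p under 0.05 in 14, Tgfb3 in 11, Tgfbr3 in 6 and Ltbp4 in 1, and the directions of these 4 genes did not change.

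**Figure D5:**
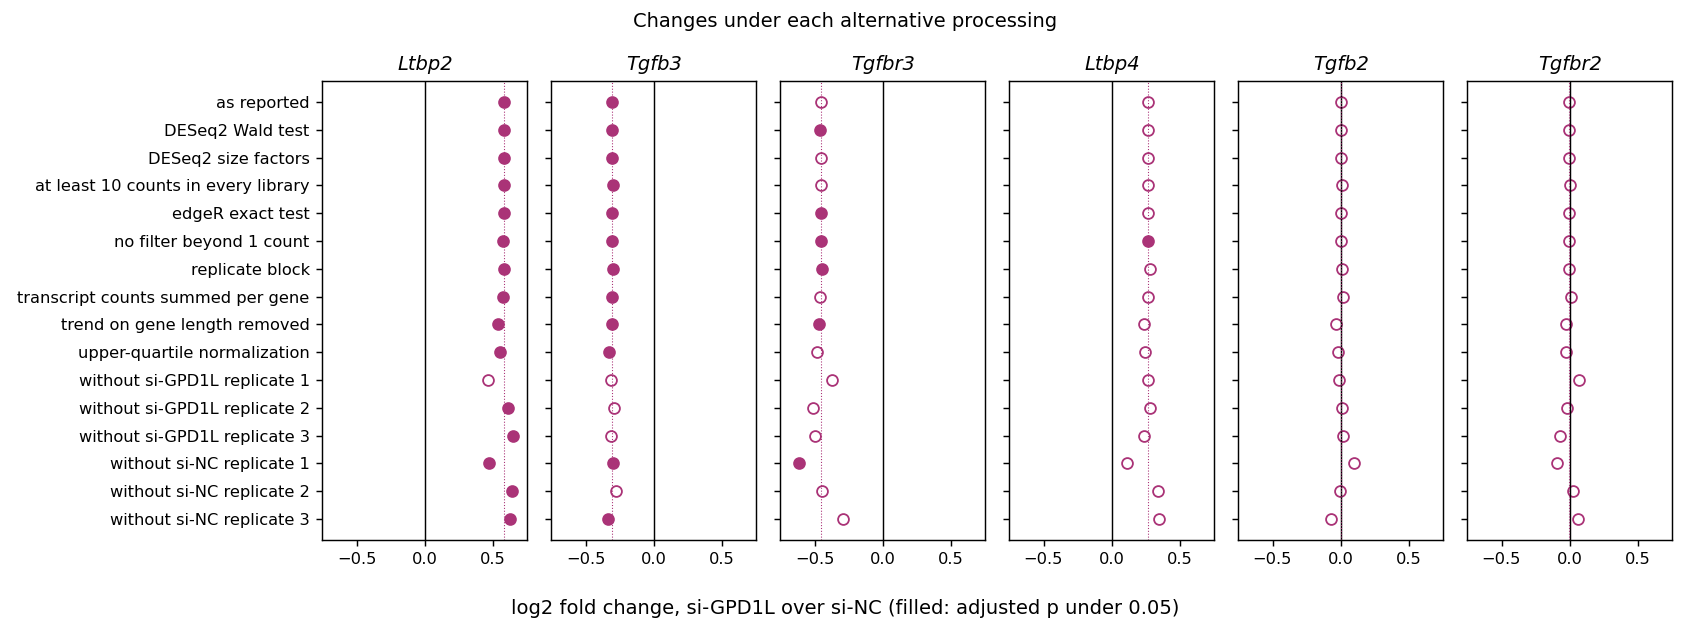
Log2 fold change (horizontal axes, si-GPD1L over si-NC) of 6 genes as reported and under each alternative (rows); filled dots have an adjusted p under 0.05, and the dotted line is the value as reported. Ltbp2 stays between 0.46 and 0.64 and Tgfb3 between -0.34 and -0.28, while Tgfb2 and Tgfbr2 lie on both sides of 0.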

How the data were processed

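Poly(A) RNA of 6 libraries was sequenced as paired-end reads. The authors deposited read counts per gene (40154) and per transcript (55760), which are whole numbers without normalization, and TPM values of the same genes. The submitters' processing notes name the rat build rn6, HISAT2 2.1.0 and HTSeq 0.12.4, with no role given. The strand setting is not given in the sources used here, so reads of overlapping genes on opposite strands may not be told apart. Transcript totals (40992579 to 49099497) exceed gene totals, since reads are counted for more than 1 isoform. The authors' own comparison tables (adjusted counts per library, log2 fold changes, p-values, q-values) and enrichment tables were not used. All columns were matched to samples by title.

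Genes were filtered by filterByExpr (14852 kept; 37822 transcripts), normalized by TMM and compared with edgeR 4.0.16 (R 4.3.3) by the quasi-likelihood F test, without covariates, and p-values were adjusted by Benjamini-Hochberg over all genes tested. The standard error is the log2 fold change over the square root of F, and intervals use its total degrees of freedom. Normalized counts are counts scaled to the mean effective library size. The method was tested on simulated data. Replicate libraries differed by more than counting noise (chi-square per degree of freedom 3.89 to 27.4). Counts of the 10 genes ran from 382 to 21944 per library, a counting error of 5.12% to 0.675%, beside a biological coefficient of variation of 0.0894. These errors cover counting only.

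The 10 genes and the lists were chosen with earlier results of these data known. A gene of the TGF-β response list is not reported here and was left out of the list counts. Named are the 10 genes, Gpd1l, and from each list around TGF-β up to 3 genes with the smallest adjusted p among those called and the 2 most abundant, with called cell type markers named beside their counts. The lists are latency and activation, co-receptors and pseudoreceptors, microfibril and elastic fiber partners, SMAD transduction, TGF-β response genes, activin and BMP ligands and receptors, soluble antagonists, interferon-stimulated genes, and markers of fibroblasts, cardiomyocytes, endothelial cells, macrophages, and smooth muscle cells with pericytes. Alternatives were other normalizations (DESeq2 size factors, upper quartile), other filters, DESeq2 1.42.0, edgeR's exact test, a block on the replicate number, omission of single libraries, transcript counts summed per gene and, added after the data were seen, each library's trend on gene length removed. Figures were drawn with matplotlib 3.10.9. Promoters came from RefSeq.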

Additional observations from a re-analysis of the deposited data

How the results depend on the processing

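When 1 library was left out, 0 to 3 of the 10 genes (0 to 1 higher), 0 to 5 of their transcripts, 2 to 31 genes of the lists around TGF-β and 361 to 1531 of all genes were then called. The cause was not tested. Without a filter on low counts, 4 of the 10 genes (2 higher), 26 list genes and 1929 of all genes were called. With edgeR's exact test, 20 list genes and 1528 of all genes were called, with DESeq2's Wald test 17 list genes and with the length trend removed 18 list genes, against 11 as reported. None of the 10 genes passed both thresholds under any alternative.

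Directions changed only for genes that were not called. With upper-quartile normalization the log2 fold change was -0.021 for Tgfb2 and -0.0057 for Bgn. With the length trend removed it was -0.033 for Tgfb2 and -0.052 for Bmpr2. With summed transcript counts it was 0.0084 for Tgfbr2. Leaving out 1 library gave -0.073 to 0.094 for Tgfb2, -0.092 to 0.070 for Tgfbr2, -0.018 to 0.127 for Ltbp3, -0.022 to 0.063 for Bgn, -0.247 to 0.0078 for Eln and -0.100 to 0.082 for Inhba.

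Replicate numbers are shared by the groups, but deviations of same-numbered libraries from their group means correlated at only -0.016, -0.0058 and 0.044, and not every library correlated best with its own number. With the replicate number as a block, 3 of the 10 genes were called in place of 2, with Tgfbr3 added (adjusted p = 0.0198). With 3 libraries in each group, intervals of the fold of the 8 genes that were not called still allow changes such as 0.589 times for Tgfbr3 and 1.43 times for Ltbp4.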
